A study of Mus musculus with 2 samples.

Results

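The antisense class comprised 4511 transcripts of 3091 genes, out of 141767 annotated transcripts. A transcript belonged to it when the class written in the eighth field of its identifier was antisense, so no measured value entered the choice. The genes that carried these transcripts were typed as antisense for 4194 transcripts, as processed transcript for 312 and as protein-coding for 5. Total RNA of the left cerebral cortex was sequenced from B6CASTF1/J male mice, the first-generation hybrids of C57BL/6J and CAST/EiJ, at 25 days of age, with 300 ng of RNA per library and no treatment named. The 2 libraries, biological replicates 1 and 2, are numbered 3 and 4 in the tissue bank. Both carry the same donor entry, so that they come from separate animals is an assumption, and an SD over n = 2 may describe technical spread alone. The spike-in mix is labelled as one for stranded libraries. The strand setting of the quantification was not given in the sources used here, so reads of an antisense exon and of the sense exon opposite it cannot be told apart with certainty. How CAST/EiJ alleles map to a reference built from C57BL/6J was not tested.

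Natural antisense transcripts are RNAs made from the strand opposite a known gene, mostly spliced, polyadenylated and without a long open reading frame. Some act in cis on the gene they face: antisense transcription over an imprinted cluster keeps the genes of that parental chromosome silent, as Kcnq1ot1, Airn and Snhg14 do. Others start at the same promoter region as their partner and run away from it, or are spliced RNAs with roles away from their site of transcription. In the forebrain, antisense RNAs of the Dlx homeobox loci accompany the transcription factors that specify GABAergic interneurons.

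The sequences below stand for the kinds of locus the values turn on, and all are written 5′ to 3′ on the strand named. The RefSeq promoter of Kcnq1ot1, the RNA at the imprinting centre inside the potassium channel gene Kcnq1, is shown for its 3 CCAAT boxes (capitals), in 250 bases with a GC share of 51.2% at chr7:143296548-143296797, minus strand, GRCm38.p6.
Kcnq1ot1 promoter: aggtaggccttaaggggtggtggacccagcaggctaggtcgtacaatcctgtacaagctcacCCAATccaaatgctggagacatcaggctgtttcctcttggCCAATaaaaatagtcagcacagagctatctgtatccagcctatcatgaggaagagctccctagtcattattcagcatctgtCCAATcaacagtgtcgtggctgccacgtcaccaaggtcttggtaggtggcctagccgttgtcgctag
The promoter of Kcnmb4os2, the antisense partner of the BK channel subunit gene Kcnmb4, is shown because it is GC-rich and holds 15 CpG, with 1 GC box read on the other strand (capitals), at chr10:116472913-116473162, plus strand.
Kcnmb4os2 promoter: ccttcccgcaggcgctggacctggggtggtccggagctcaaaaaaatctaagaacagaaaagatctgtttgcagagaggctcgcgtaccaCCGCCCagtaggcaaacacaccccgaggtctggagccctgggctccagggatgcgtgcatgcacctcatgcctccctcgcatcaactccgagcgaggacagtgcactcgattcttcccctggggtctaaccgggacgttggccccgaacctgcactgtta
The promoter of Brip1, which encodes a DNA helicase that binds BRCA1, is shown with the start of its divergent antisense gene Brip1os inside it: capitals run over 177 bases from the Brip1os start at 86201370 to the base before the Brip1 start at 86201193 (chr11:86201194-86201443, minus strand).
Brip1 promoter: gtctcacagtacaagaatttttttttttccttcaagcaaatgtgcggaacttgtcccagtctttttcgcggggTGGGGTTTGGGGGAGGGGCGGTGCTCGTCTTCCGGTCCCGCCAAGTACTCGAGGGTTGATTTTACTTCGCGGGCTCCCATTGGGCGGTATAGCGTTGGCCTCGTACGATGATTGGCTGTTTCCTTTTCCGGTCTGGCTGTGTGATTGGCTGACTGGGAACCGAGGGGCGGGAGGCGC
Zfhx2os, opposite the zinc finger homeobox gene Zfhx2, is shown for its exon complementarity: these 30 bases of coding exon at chr14:55073774-55073803 lie in a block of 1151 bases shared by the exons of both strands.
Zfhx2os-202: ggcgggggtgggcgcccccggcgctacagt
Zfhx2-201: actgtagcgccgggggcgcccacccccgcc
Rab26os-202, a 298-base RNA spliced from chr17:24528248-24528744 on the plus strand, is shown whole because it had counts in one quantification and none in the other.
Rab26os-202: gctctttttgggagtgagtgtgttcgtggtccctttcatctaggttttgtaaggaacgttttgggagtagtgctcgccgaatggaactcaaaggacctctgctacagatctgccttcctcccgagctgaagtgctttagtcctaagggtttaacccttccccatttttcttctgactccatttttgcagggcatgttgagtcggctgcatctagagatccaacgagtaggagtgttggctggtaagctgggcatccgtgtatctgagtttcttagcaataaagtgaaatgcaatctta
The same 31 bases occur in Gm48765-201 and Gm47578-201 and in 151 annotated transcripts in all, these included, and are shown as an example of repeat sequence in an antisense RNA.
Gm48765-201 and Gm47578-201: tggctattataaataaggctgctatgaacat

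Each library was quantified in a pair of transcript tables from the same reads. The first, called here the estimated-count table, summed to 31012279 estimated counts in replicate 1 and 33760788 in replicate 2. The second, the expected-count table, summed to 30503944 and 33263801. The markers of the labelled tissue were present: neuronal, glutamatergic, GABAergic, astrocyte, oligodendrocyte, microglial and endothelial genes were at 1 TPM (a level per transcript length, scaled to a fixed total) or more in 3 of 3 for each list, and of the genes of neighbouring regions 1 of 3 cerebellar and 2 of 3 thalamic ones were. Red blood cell genes were present, 3 of 3, at 1806 and 1245 summed TPM. The libraries differed most in choroid plexus markers, 32.3 against 304 summed TPM in replicates 1 and 2, and in immediate early genes, 536 against 317, while GABAergic markers were at 273 and 278. The part of these differences in the antisense values was not tested, and in bulk tissue fewer cells of a type and less RNA per cell cannot be told apart.

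Antisense transcripts were a small part of the cortical transcriptome, and most were at low levels or below detection. They took 0.294% of the estimated counts in replicate 1 and 0.268% in replicate 2 (90876 and 90056 counts). In the expected-count table the shares were 0.196% and 0.185% (59593 and 61109 counts). A transcript was taken as detected when its TPM was at least 1 in both replicates. By estimated counts 451 of 4511 members (9.998%, Wilson 95% interval over transcripts 9.16 to 10.9) were detected, against 29.9% of all annotated transcripts. By expected counts 232 were detected (5.14%, 4.54 to 5.83), against 23.8% of all. Detection by both tables held for 206 members, 245 were detected in the estimated-count table alone and 26 in the expected-count table alone. The class most like it was lincRNA, with 9.59% and 5.14% of 9101 transcripts detected in the respective tables. Protein-coding transcripts stood at 41.0% and 36.1% of 58797. Transcripts of the bidirectional promoter class, which is annotated separately, were detected at 25.7% and 14.1% of 327.

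At the low end, 2162 members had a count of 0 in both replicates of the estimated-count table and 2426 in the expected-count table, with 1897 at 0 in both tables. For a member of median length, 763 bases, a count of 0 allows up to 3 counts, which is a level of 0.463 and 0.412 TPM in the estimated-count table and of 0.224 and 0.201 TPM in the other, and shorter members have a higher limit. The tables differed on which members were at 0, from the same reads. At the high end 45 members had a mean of at least 10 TPM in the estimated-count table and 17 in the expected-count table. The 10 leading members held 32.7% and 40.6% of the summed antisense TPM of these tables. The median level of detected members was 2.79 and 2.61 TPM in replicates 1 and 2, against 8.98 and 8.95 TPM for detected protein-coding transcripts.

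One gene, Snhg14, accounted for most of the top of the class. Snhg14 (chr7:59307924-59975759, minus strand) is the long host RNA of the Prader-Willi and Angelman region, which in neurons is read from the paternal chromosome through small nucleolar RNA clusters into the antisense strand of the ubiquitin ligase gene Ube3a. Its antisense transcripts summed to 1184 TPM in replicate 1 and 1028 in replicate 2, or 1106 ± 110.2 (SD, n = 2). The expected-count table gave 772 and 679 TPM, or 726 ± 65.7. That was 29.9% and 38.8% of all antisense TPM in the respective tables. Of its 14 annotated isoforms, 13 and 12 had a mean of at least 1 TPM. Ube3a itself was at 94.0 and 95.2 TPM.

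The tables spread this signal over different isoforms. In the estimated-count table Snhg14-206 led with 311 and 273 TPM, from 10468 and 10226 counts. In the expected-count table that isoform was at 38.8 and 33.8 TPM, and Snhg14-203 led with 403 and 357 TPM (249 and 226 TPM in the estimated-count table). Snhg14-208 ranked next there, with 117 and 98.9 TPM, but had only 9.15 and 7.24 TPM in the estimated-count table. Snhg14-206 holds a run of alternating A and C whose 31 bases occur in 3478 annotated transcripts, as does Snhg14-214, which was at 31.1 and 27.5 TPM in the first table and at 1.55 and 1.39 TPM in the second. The part of this repeat in the difference was not tested. Snhg14-213 is the isoform whose exons lie opposite Ube3a exons, over 48.6% of its bases, and it reached 11.0 and 9.91 TPM (6.31 and 5.72 TPM by expected counts). The isoforms Snhg14-207 and Snhg14-210 were at 210 and 175 TPM and at 195 and 169 TPM. Snhg14-202, Snhg14-211 and Snhg14-209 were at 73.8 and 55.8, 41.9 and 37.7, and 26.5 and 25.8 TPM in replicates 1 and 2.

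**Figure D1:**
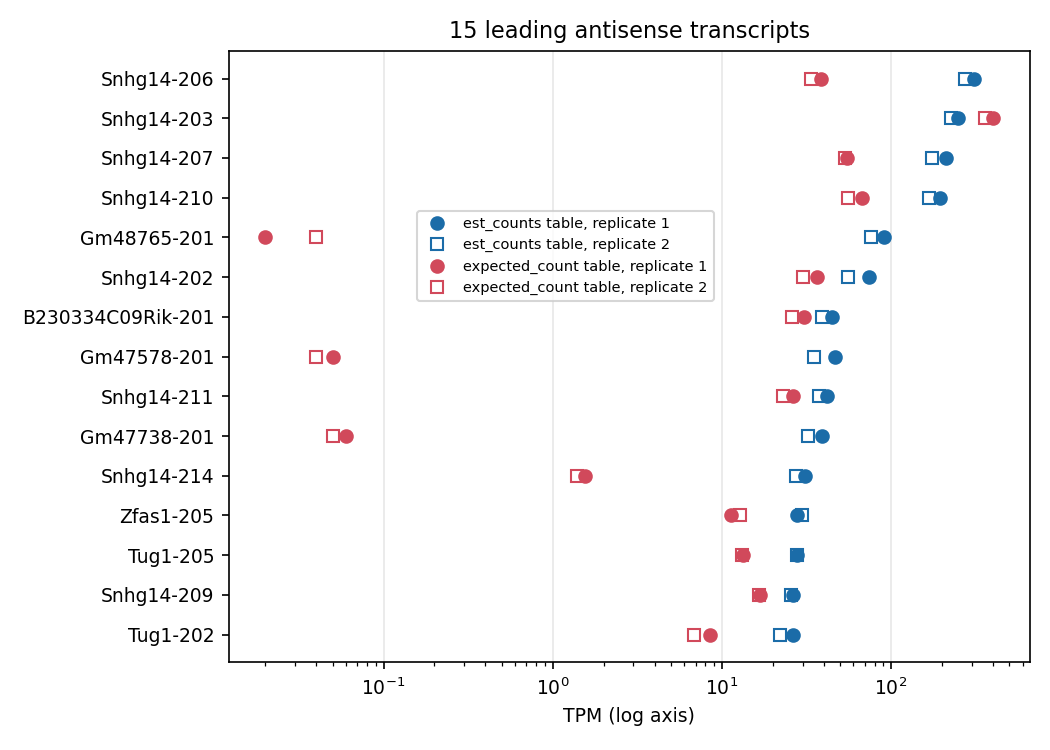
TPM (log axis) of the 15 antisense transcripts with the highest mean in the estimated-count table, with replicate 1 as circles and replicate 2 as squares for each table. Replicates lie close together throughout, while the tables part for Gm48765-201, Gm47578-201 and Gm47738-201, which are at 0.06 TPM or less by expected counts.

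Tug1, a conserved and widely expressed long non-coding RNA first described in the retina, came next as a gene (chr11:3639785-3649673, minus strand). Its antisense transcripts summed to 85.2 and 85.7 TPM, and to 47.5 and 48.8 TPM in the expected-count table. The isoforms Tug1-205 (28.0 and 27.7 TPM) and Tug1-202 (26.5 and 22.1 TPM) were among the 15 leading transcripts. Zfas1-205, an isoform of a small nucleolar RNA host gene at chr2:167062934-167065862, was at 27.8 and 29.98 TPM (11.3 and 12.7 TPM by expected counts). B230334C09Rik, a single-exon gene of chromosome 3, was at 45.1 and 39.1 TPM, or 42.1 ± 4.24, and at 30.5 and 26.0 TPM in the expected-count table. Gm26782 was at 48.9 and 43.2 TPM, A830082K12Rik at 44.2 and 44.1 TPM, A830036E02Rik at 37.3 and 34.2 TPM and 2810468N07Rik at 22.1 and 23.3 TPM.

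The remaining leading transcripts of the estimated-count table were nearly absent from the other. Gm48765-201, which meets the span of Fars2 on the other strand but no opposite exon, had 91.4 and 76.5 TPM. These came from 2790 and 2598 estimated counts, but it had 1 and 2 expected counts. Gm47578-201 had 46.6 and 34.9 TPM against 0.05 and 0.04 TPM. Gm47738-201, opposite the helicase gene Mcm9, had 38.9 and 32.3 TPM against 0.06 and 0.05 TPM. Between 92.1% and 99.9% of the 31-base words of these RNAs occur in transcripts of other genes, on either strand, as the repeat printed for Gm48765-201 does. The median over all members was 8.53%. Of the 15 transcripts named, 10 were also among the leading 15 by expected counts. Those that led in the expected-count table alone included AC109619.1-201 (18.1 and 14.1 TPM) and Tug1-203 (12.7 and 17.1 TPM).

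Detection differed with how a member lies against the opposite strand, given here as a description with no test. Exons of 2506 members overlap an exon on the other strand. Another 1419, called intron-only here, meet the span of an opposite protein-coding gene but no opposite exon. Whether they lie wholly inside an intron was not checked, and some reach beyond the gene. The remaining 586 meet no opposite exon or protein-coding gene. Of the exon-overlapping members 281 (11.2%) were detected in the estimated-count table and 151 (6.03%) in the expected-count table. Of the intron-only members 84 (5.92%) and 26 (1.83%) were detected, and of those without overlap 86 (14.7%) and 55 (9.39%). The sum of estimated counts over that of expected counts was 4.65 and 4.11 for the intron-only members in replicates 1 and 2. For exon-overlapping members it was 1.27 and 1.24, and for those without overlap 1.47 and 1.44. With members whose 31-base words are over 90% shared left out, the intron-only ratio was 2.03 and 1.89. These ratios were 1.06 and 1.07 for protein-coding transcripts and 1.22 and 1.22 for lincRNA.

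Some members are mostly covered by opposite exons and meet an opposite protein-coding gene of at least 10 TPM. They were detected about as often as the whole class, but were more often at 0 counts. Opposite exons, of any gene, cover at least 75% of the bases of 261 members. The opposite gene was taken as the protein-coding gene with the longest overlap, so the covering exons need not be its own. For 135 of these members it was at 10 TPM or more by expected counts, with a median of 49.5 TPM in the estimated-count table. Of these 135 members 13 (9.63%) were detected by estimated counts and 8 (5.93%) by expected counts, beside 9.998% and 5.14% of the class. At 0 counts in both replicates were 94 (69.6%) by estimated counts and 81 (60%) by expected counts, beside 47.9% and 53.8% of the class. Short members were read differently by the tables. Of 276 members under 345 bases, 8 had any estimated count and 52 any expected count, with 6 against 115 counts in replicate 1. From 2000 bases upward the order was the other way, with 66673 estimated against 37293 expected counts over 758 members in replicate 1. A few members held a large part of that difference. Snhg14-206 had 10468 against 1889 counts, Gm47578-201 4120 against 6 and Gm48765-201 2790 against 1. Some long members had more expected counts, such as Tug1-203 with 4.42 against 1277. For spike-in RNAs of 505 to 642 bases the ratio of estimated to expected counts was 0.490 and 0.493 in replicates 1 and 2, and for those of 751 to 1156 bases it was 0.773 and 0.785.

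Promoter windows of 300 bases from RefSeq, 250 before and 50 after the start, were found for 191 detected antisense genes (249 windows) and 941 other antisense genes (1144 windows). The detected genes had a median GC share of 58.0% and 15 CpG, the others 50.7% and 5 CpG, and all 32851 annotated windows 52.7% and 7 CpG. The GC box GGGCGG, searched on both strands, was in 43.4%, 22.1% and 35.7% of these windows. CCAAT was in 34.1%, 33.3% and 37.4%, TATAAA in 11.2%, 10.5% and 13.6%, and TGACGTCA in 0.803%, 1.31% and 1.79%. These shares are a description with no test, and a match is not a binding site.

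The suffix os in a symbol names an opposite-strand gene, and 268 genes of the class carried it. For 265 the rest of the symbol named a gene in the files, 227 distinct partners in all, and every pair was annotated on opposite strands. Most os genes were far below their partner. In both replicates 38 os genes (14.3%) were detected in the estimated-count table and 27 (10.2%) in the expected-count table, against 211 and 201 of the pairs for the partner. Over the 249 pairs with a partner above 0 the median ratio of os gene to partner was 0.00329 and 0.00252 in replicates 1 and 2. For os genes with a mean of at least 1 TPM it was 0.199 and 0.187, and 0.182 and 0.189 by expected counts, 46 and 28 genes chosen by their own level. Across pairs, which share a library, Spearman's rho of the levels was 0.11 and Pearson's r of the log values 0.16, given as a description.

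Pairs with the os gene inside its partner were the least often detected. There 6 of 121 os genes (4.96%) were detected, against 19 of 76 (25.0%) in pairs overlapping head to head, 6 of 24 (25.0%) tail to tail and 4 of 30 (13.3%) of divergent pairs that do not overlap. By expected counts these were 3, 13, 4 and 4. Where the 5′ ends lie within 1000 bases, 17 of 59 os genes were detected, and 21 of 206 where they lie farther apart. At 0 counts in both replicates were 96 os genes by estimated counts and 125 by expected counts, and in 52 and 53 of these pairs the partner was at 10 TPM or more. Ppp2r2cos is an example, chosen after its values were seen: it was at 0 in both tables inside Ppp2r2c, a phosphatase subunit gene at a mean of 343 TPM.

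The os gene stood at or above its partner in 8 of the 218 pairs in which either gene had a mean of 1 TPM, and in 5 of 206 by expected counts. Both tables placed 4 pairs there. Dlx6os1, the os gene of the interneuron homeobox gene Dlx6, was at 13.3 and 15.1 TPM (602 and 670 counts) as a sum of isoforms. Dlx6 was at 4.08 and 4.23 TPM, which gave a ratio of 3.25 and 3.57. Of the isoforms only Dlx6os1-201 runs across Dlx6. It was at 4.51 and 4.04 TPM, above Dlx6 in replicate 1 and below it in replicate 2. By expected counts Dlx6os1-201 was at 1.37 and 1.4 TPM, below the 2.77 and 3.21 TPM of Dlx6. The other Dlx gene of the cluster, Dlx5, was at 5.19 and 5.10 TPM. Prox2os was at 4.26 and 5.13 TPM against 1.09 and 0.932 TPM for the homeobox gene Prox2. Brip1os, whose start lies in the Brip1 promoter printed above, was at 4.40 and 4.64 TPM (278 and 325 counts) against 2.67 and 1.79 TPM for Brip1. By expected counts Brip1os was at 3.25 and 3.27 TPM and Brip1 at 0.18 and 0.10 TPM. Ccdc142os was at 2.60 and 2.53 TPM against 1.11 and 1.67 TPM for Ccdc142. It rested on 22 and 24 counts against 19.1 and 28.0, so on counts it was below its partner in replicate 2. Opposite exons cover 100% of the bases of an isoform of Ccdc142os. On TPM, replicates of os gene and partner did not overlap in any of these 4 pairs. That largely follows from choosing pairs with the os gene at or above its partner in both replicates.

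The others at or above their partner in both replicates by estimated counts rested on fewer counts than Ccdc142os. Chrna1os had 7 and 4 counts and Hmgb4os 6 and 3. Hand2os1 had 15.1 and 11.6 counts (5.43 and 3.67 TPM), with Hand2 listed at 0, and was at 0 by expected counts. Ttc39aos1 was at or above Ttc39a only by expected counts, and at 2.64 and 1.88 TPM against 1.38 and 2.24 TPM in the estimated-count table. Tbx3os1 (2.77 and 1.88 TPM) and Six3os1 (0.807 and 1.47 TPM) passed their partners, the T-box gene Tbx3 (5.495 and 1.87 TPM) and the homeobox gene Six3, in replicate 2 alone.

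Among the 46 os genes with a mean of at least 1 TPM, 17 were between 0.1 and 1 times their partner in both replicates and 14 below 0.1 times. Rab10os was the highest, at 32.4 and 36.6 TPM (893 and 989 counts; 18.0 and 18.1 TPM by expected counts), against 91.8 and 93.9 TPM for Rab10, a GTPase of vesicle transport. Its leading isoforms, Rab10os-203 (11.5 and 11.3 TPM) and Rab10os-206 (9.27 and 12.6 TPM), meet no opposite exon or protein-coding gene. Tmem147os was at 19.3 and 20.7 TPM against 100.1 and 99.8 TPM, with 39 bases between the 5′ ends of the pair. Sp3os was at 15.5 and 15.5 TPM, against 43.5 and 34.4 TPM for the transcription factor gene Sp3. Its isoform Sp3os-203, at 7.70 and 7.25 TPM, meets no opposite exon or protein-coding gene. Kcnmb4os2, with the promoter printed above, was at 14.5 and 15.5 TPM (164 and 164 counts) against 84.5 and 86.8 TPM for Kcnmb4. Zfhx2os was at 10.04 and 11.1 TPM against 33.8 and 25.4 TPM, and of its isoforms Zfhx2os-202, the one printed above, was at 2.78 and 2.62 TPM. These levels differed by less between replicates than between os gene and partner.

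Hectd2os (6.92 and 7.09 TPM), Mypopos (7.45 and 3.77 TPM) and Igf1os (5.40 and 4.09 TPM) were much lower by expected counts, at 0.52 and 0.65, 0.28 and 0.45, and 0 and 0 TPM. The growth factor gene Igf1, the partner of Igf1os, was at 8.40 and 8.11 TPM. Most of the Igf1os level came from Igf1os-201 (5.21 and 4.01 TPM), which does not overlap Igf1. In the estimated-count table Zfp652os, Phf2os1, Cyp4x1os, Zfp335os, Zbtb11os1, Fbxl12os, Far2os1, Runx2os1 and Zfp85os were also between 0.1 and 1 times their partners. Their mean levels were 1.98 to 5.76 TPM. By expected counts Far2os1 was at 0.0245 and 0.0501 times Far2 and Phf2os1 at 0.0739 and 0.0851 times Phf2. Cyp4x1os and Fbxl12os stayed above 0.1 times their partners there. Far2os1 rested on 7 and 9 estimated counts.

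The lowest ratios were against partners of high level. Chn1os1 was at 1.55 and 1.37 TPM inside Chn1, a Rac regulator gene at 1301 and 1316 TPM. H3f3aos was at 1.06 and 0.980 TPM against 299 and 311 TPM for the histone gene H3f3a. Pitpnm2os2 was at 1.47 and 2.04 TPM against 208 and 183 TPM. Tomm6os, opposite a gene of mitochondrial protein import, was at 1.89 and 1.99 TPM against 165 and 175 TPM. Pcsk2os1, opposite a prohormone convertase gene, was at 2.38 and 1.28 TPM against 180 and 181 TPM. Zeb2os was at 4.98 and 4.41 TPM inside the transcription factor gene Zeb2, at 118 and 135 TPM. Arhgap20os, B9d1os, Grip1os3, Kcnd3os, Man2c1os, Mccc1os, Rab26os and Zmiz1os1 were also below 0.1 times their partners in the estimated-count table, and Gssos2, Junos, Mettl5os and Taco1os were so in 1 replicate only. By expected counts Rab26os was not low: at 8.56 and 6.54 TPM it was 0.378 and 0.281 times Rab26. In all, 11 of the 46 had a mean of fewer than 10 counts.

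Junos, opposite the immediate early gene Jun, was lower in replicate 2, as were the 4 immediate early genes of the marker list. Its isoforms summed to 4.23 and 1.83 TPM in replicates 1 and 2, from 22 and 11 counts (2.00 and 1.10 TPM by expected counts). Of these isoforms only Junos-207 overlaps Jun, at 1.005 and 0.298 TPM from 6 and 2 counts. Jun was at 34.7 and 30.3 TPM, Fos at 60.2 and 35.6 TPM, Arc at 240 and 118 TPM, Npas4 at 19.5 and 8.49 TPM and Egr1 at 216 and 154 TPM. What moved Junos was not tested, and its counts are few.

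**Figure D2:**
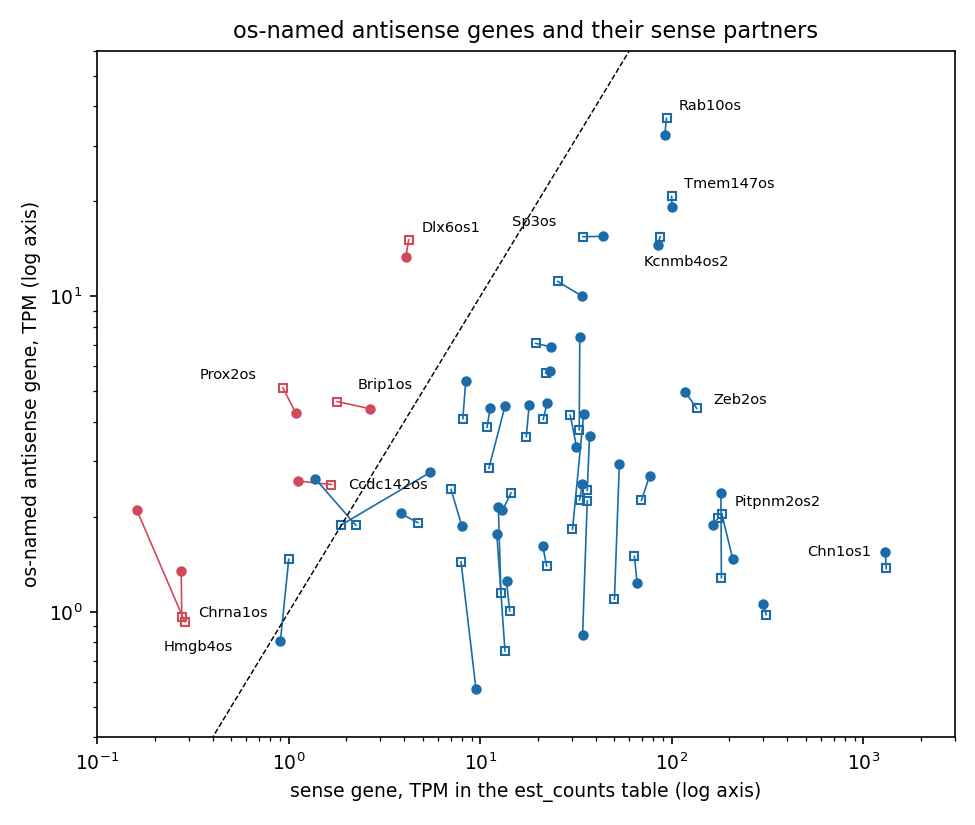
TPM of os-named antisense genes against that of their sense partners in the estimated-count table, both on log axes, for os genes with a mean of at least 1 TPM, with a line joining the replicates of a pair and a dashed line where both genes are equal. Most pairs lie below the line by a wide margin, and Dlx6os1, Prox2os, Brip1os and Ccdc142os are among those above it in both replicates. Pairs whose partner is listed at 0, such as Hand2os1, are not drawn.

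Antisense genes known from other work were taken from a list of 45, of which 24 carried the antisense class, and 8 of the 24 were detected in both tables. Of all antisense genes 13.1% were detected by estimated counts and 6.63% by expected counts, so a list of a few genes with none detected is not set apart from the class by its count. The imprinted or X-inactivation set had 5 such genes. Besides Snhg14, Kcnq1ot1 (chr7:143203458-143296549, minus strand) was detected, as a single exon of 93092 bases with 7245 and 6120 counts. That gave 5.04 and 3.84 TPM, and 2.84 and 2.17 TPM by expected counts. Its host Kcnq1, a potassium channel gene, was at 0.38 and 0.49 TPM. Airn, which runs antisense to the receptor gene Igf2r, was at 5.51 and 6.33 TPM (1.93 and 2.17 TPM by expected counts). Nespas, opposite the Nesp exon of the Gnas locus, was at 0.87 and 1.02 TPM, beside 1313 and 1277 TPM for Gnas. Tsix, which opposes the X-inactivation RNA on the chromosome kept active, was at 0 and 0.020 TPM in these male libraries.

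Of the 9 antisense genes of forebrain transcription factor loci, 4 were detected in both tables. These were Dlx6os1, Zeb2os, Zfhx2os and Dlx1as. Dlx1as was at 18.7 and 16.0 TPM (9.03 and 8.40 TPM by expected counts), close to the 14.9 and 17.2 TPM of Dlx1. Dlx2, the other gene of that cluster, was at 3.12 and 3.77 TPM. Six3os1 was given above. Emx2os was at 0.90 and 0.77 TPM, Pax6os1 at 0.12 and 0.44 TPM, Nkx2-2os at 0.11 and 0.10 TPM and Dlx4os at 0.098 and 0.088 TPM. None of the 7 antisense genes of Hox loci, which pattern the trunk and hindbrain, was detected in both replicates of either table. All 7 were at 0 expected counts and 5 at 0 estimated counts, while Hoxaas3 had 2 and 2 counts and Hoxb3os 0 and 2. Of the others, Zfas1 was detected. Uchl1os, opposite the abundant neuronal ubiquitin hydrolase gene Uchl1, was at 0.92 and 0.47 TPM from 5.08 and 4.04 counts (0.03 and 0.06 TPM by expected counts). Most of the estimated level came from Uchl1os-202 (0.773 and 0.344 TPM), which does not overlap Uchl1. The overlapping isoform Uchl1os-201 was at 0.144 and 0.130 TPM. Wt1os was at 0.050 and 0.25 TPM.

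The tables were compared member by member on log2 of mean TPM + 0.1, which understates differences of low members. Of 587 members with a mean of at least 1 TPM in either table, 260 (44.3%) were within 2-fold, 303 (51.6%) were over 2-fold higher in the estimated-count table and 24 (4.09%) in the expected-count table. Over all annotated transcripts 47.1% were over 2-fold apart, 35.7% higher by the estimated-count table and 11.4% by the other. The median log2 difference was 1.05 for antisense members, 0.62 for protein-coding transcripts, 1.17 for lincRNA and 0.68 over all. When TPM was recomputed without small, ribosomal, mitochondrial and spike-in RNA, the median over all transcripts was -0.01, and that of 722 antisense members 0.35. On that scale 447 members (61.9%) were within 2-fold, beside 60.8% of all transcripts, 214 (29.6%) were higher by estimated counts and 61 (8.45%) by expected counts. Detection on that scale was 530 members against 395. Across all members Spearman's rho of the tables was 0.69 in replicate 1 and 0.70 in replicate 2, a description of values that come from the same reads.

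Members that parted the tables differed in kind. On the deposited scale, 114 members were over 8-fold higher in the estimated-count table, and 61 of these had an expected count of 0. Of the 114, 41 (36.0%) were intron-only as defined above, against 35 of the 260 (13.5%) within 2-fold. Their most repeated 31-base word occurred in a median of 38.5 annotated transcripts, against 4 for those within 2-fold, and the median share of words found in other genes was 14.3% against 14.2%. The most extreme were Gm48765-201 (log2 9.34), Gm47578-201 (8.14) and Gm47738-201 (7.85), then Gm48754-201, Gm16344-201 and Gm29084-201. Of the latter, Gm16344-201 had 15.5 and 10.3 TPM in the estimated-count table and a count of 0 in the other.

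The 24 members higher by expected counts were short, with a median length of 388.5 bases against 1296.5 for those within 2-fold, and 14 had an estimated count of 0. Rab26os-202, printed above, had 31.2 and 28.5 expected counts (7.80 and 6.37 TPM) and an estimated count of 0 in both replicates. Gm4419-208, of 306 bases, had 21 and 19 expected counts. Gm45533-201, of 165 bases, had 4 and 4. Sp3os-204 and B130046B21Rik-202, of 364 and 334 bases, rested on 5.74 and 12.2 and on 4.52 and 12.5 expected counts.

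**Figure D3:**
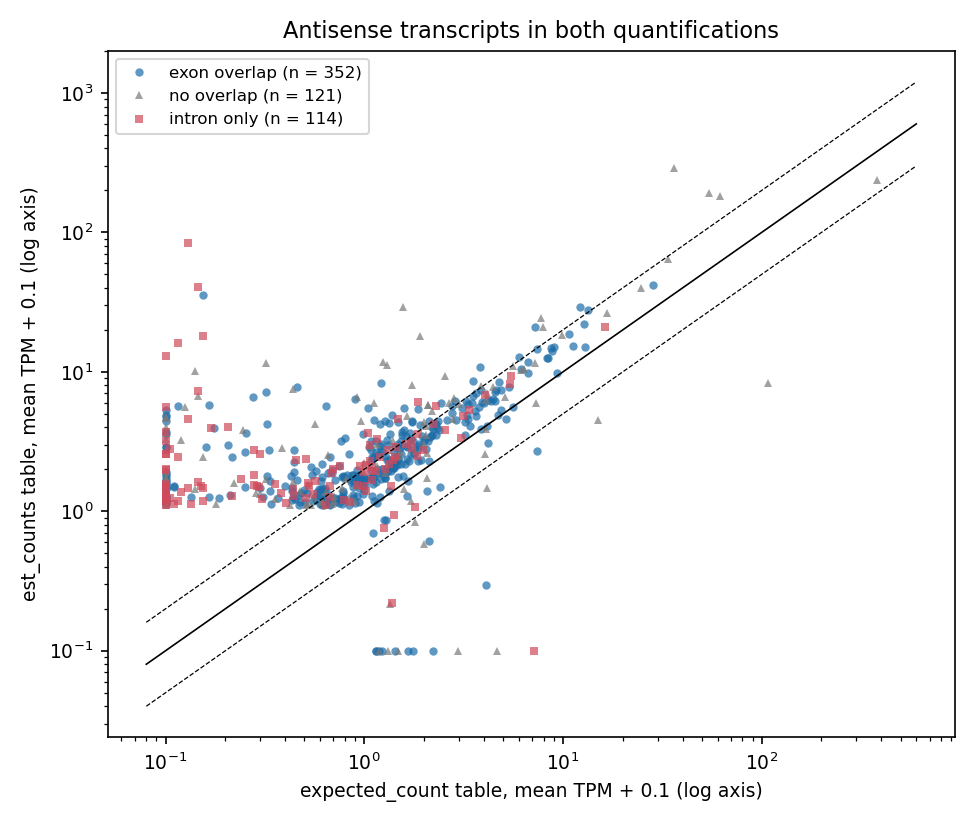
Mean TPM + 0.1 of antisense transcripts in the estimated-count table against that in the expected-count table, both on log axes, by position against the opposite strand, with equality as a solid line and 2-fold as dashed lines. Points lie mostly above equality, and the column at the far left holds members at or near 0 by expected counts.

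A smaller share of this class than of all transcripts differed between replicates, and the share depended on the scale. Of 709 members with a mean estimated count of at least 10, 30 (4.23%) were over 2-fold apart on TPM + 0.5, which understates differences of low members, 15 higher and 15 lower in replicate 2. Over all annotated transcripts 10.7% were, 5.24% higher and 5.51% lower. On TPM + 0.1 it was 52 members (7.33%), beside 14.3% of all. With counts scaled by TMM or to the total it was 62 (8.74%), beside 15.3% and 15.4% of all. With expected counts 13 of 514 members (2.53%) were over 2-fold apart, against 8.61% of all, where 4.08% were higher and 4.54% lower. With 1 library on each side there is no replicate check of such a difference and no p-value. Few had depth behind them: 27 of the 30 had a mean under 50 counts, none had at least 50 counts in both replicates, and 3 were over 2-fold apart the same way by expected counts. For 27 of the 30 the gene's summed antisense transcripts were within 2-fold, and 28 came from genes with more than 1 antisense transcript. In 5 genes 1 isoform was higher and another lower. Trmt61b-201 had 76.7 and 3.42 counts while Trmt61b-202 had 0 and 78.4, and Gm9885-202 had 50 and 2.85 while Gm9885-201 had 0 and 54.1.

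**Figure D4:**
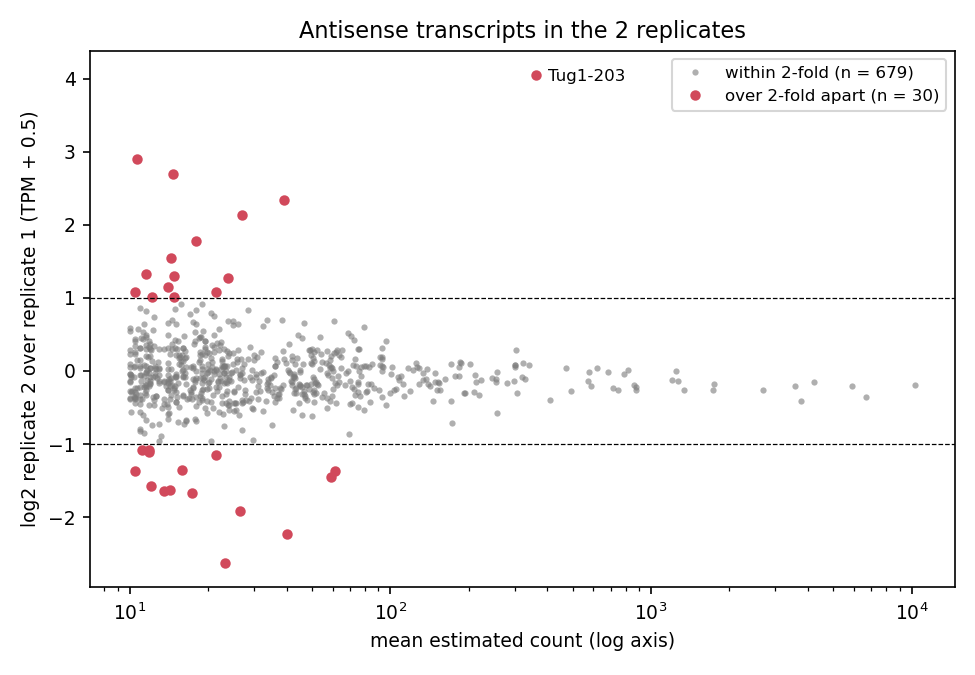
Log2 of replicate 2 over replicate 1 (TPM + 0.5) against the mean estimated count (log axis) for the 709 antisense transcripts with a mean of at least 10, with 2-fold as dashed lines. The 30 coloured points are over 2-fold apart, and most are at low counts, with Tug1-203 standing apart at 4.05.

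Tug1 gave the largest difference of an isoform among the 197 members with a mean of at least 50 counts, and none as a gene. Tug1-203 had 4.42 counts in replicate 1 and 719 in replicate 2, a log2 of 4.05 on TPM + 0.5. The exact binomial 95% interval of the count ratio was 6.02 to 9.27 on the log2 scale, which covers counting error only. By expected counts it had 1277 and 1934 counts, a log2 of 0.42, with deposited TPM intervals of 9.22 to 15.7 and 12.5 to 20.2 that overlap. The other isoforms were close between replicates in the estimated-count table: Tug1-202 had 1796 and 1663 counts, Tug1-207 1194 and 1213, Tug1-201 742 and 694 and Tug1-205 550 and 606. The gene's antisense transcripts summed to 4304 and 4909 counts.

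**Figure D5:**
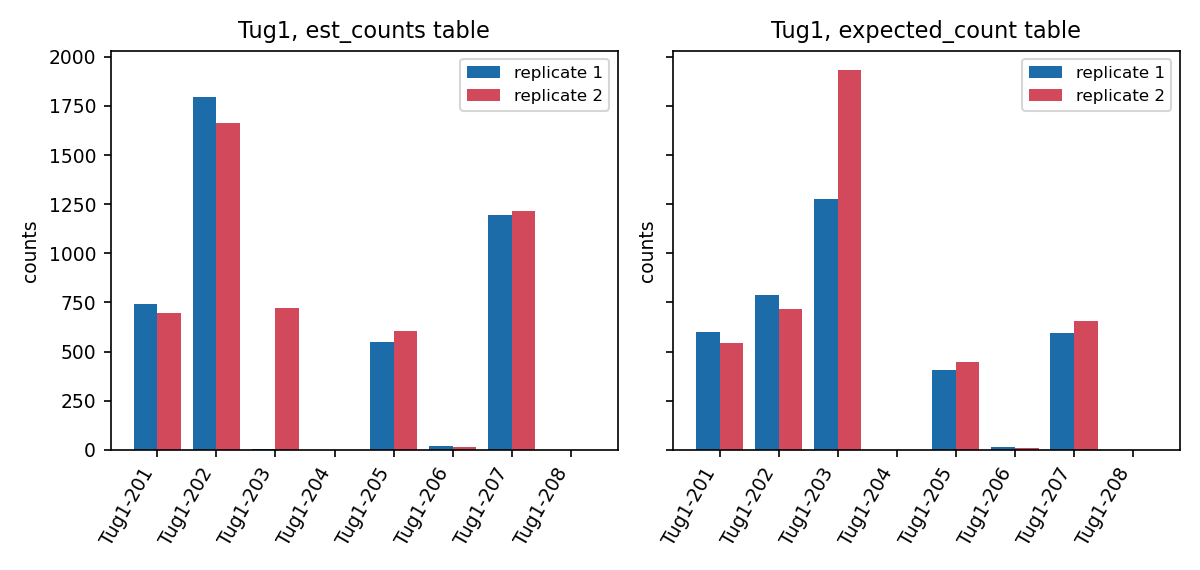
Counts of the Tug1 antisense isoforms in replicates 1 and 2, as bars from 0, in the estimated-count table and in the expected-count table. Tug1-203 is near 0 in replicate 1 of the estimated-count table and the highest isoform in both replicates of the other.

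The other members at the extremes of that comparison moved less. Higher in replicate 2 were 5430405H02Rik-202 (log2 0.69), Gm5577-201 (0.60), AC165962.1-202 (0.51), Gm45447-201 (0.48) and 6330418K02Rik-202 (0.46). By expected counts these were at 0.22, 0.01, 0.41, 0.45 and -0.46. Lower were Gm3892-201 (log2 -1.45; 87.8 and 30.2 counts), 2810468N07Rik-204 (-1.37; 89.0 and 34.1 counts), Gm15614-201 (-0.86), Gm49015-201 (-0.72), Gm10125-203 (-0.61) and Gm16344-201 (-0.57). By expected counts Gm49015-201 was at -0.05 and Gm10125-203 at -0.025. All 31-base words of Gm3892-201 occur in other genes, and it was at 0 by expected counts. 2810468N07Rik-204 went the other way by expected counts, with 14.6 and 57.9 (log2 1.30). As genes, 7 of 581 were over 2-fold apart (1.20%), among them Junos, Arhgap20os (2.93 and 1.10 TPM) and A730056A06Rik (2.45 and 6.35 TPM). By expected counts Arhgap20os was at 0.79 and 0.80 TPM, with no such difference, and A730056A06Rik at 1.86 and 2.87 TPM. With expected counts 3 of 409 genes were.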

How the data were processed

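Total RNA-seq was quantified for each library on mm10 with GENCODE M21, per the file list deposited with it. The deposited estimated counts come in columns named as kallisto writes them and the expected counts in columns named as RSEM writes them, per the file headers. Versions and strand setting were not given in the sources used. TPM sums to the same total in every table over all its rows, spike-ins included, per the deposited values. The authors' TPM interval bounds are a posterior score, and their isoform share is a deposited percent that was not used. Gene tables were not used here.

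Members were read from the class field. Levels are mean ± SD over n = 2. Gene values sum antisense transcripts, partner values all transcripts of a gene. Replicates were compared on log2(TPM + 0.5) at a mean count of at least 10, tables on log2(TPM + 0.1), with no test since there is 1 group. Overlaps and arrangements use GENCODE M21 coordinates. Binomial intervals and the 3-count limit cover counting error only. Named are the 15 leading transcripts, os genes at a mean of 1 TPM, the 6 extremes each way between replicates (mean count of at least 50) and between tables, and a list of known antisense genes, beside Ppp2r2cos, isoforms of named genes and the leading genes. A few items that these rules name are not reported here. The members and lists were chosen with earlier results of these data known. Promoters are RefSeq windows of GRCm38.p6 and transcript sequences are from GENCODE M21. TMM factors are from edgeR 4.0.16 (R 4.3.3) on rounded counts, the rest from scipy 1.17.1, pandas 2.3.3 and numpy 2.4.6 under Python 3.11.15, with figures by matplotlib 3.10.9. On simulated counts of 53690 unchanged transcripts, filtered at a mean of 10 counts, 0.4% were over 2-fold apart. These were Poisson counts drawn separately for each transcript. They held no spread between libraries beyond depth and no error in sharing reads among isoforms. The 0.4% therefore covers counting error only and is not a rate of false calls for these data. Of simulated transcripts drawn at a mean of at least 50 counts, 99 of 100 made 4-fold higher and 100 of 100 made 4-fold lower were recovered. Recovery at lower counts was not tested.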

Additional observations from a re-analysis of the deposited data

How the results depend on the processing

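Counts over thresholds moved with the settings. The 451 members detected became 1374 at 0.1 TPM, 737 at 0.5 TPM, 95 at 5 TPM and 232 in the expected-count table, and single replicates gave 548 to 588. The 260 members within 2-fold in both tables became 960 of 1982 with a mean of at least 0.1 TPM, 396 of 756 with a mean count of at least 10, and 405 of 587 (69.0%) with counts scaled to the file total. Without small, ribosomal, mitochondrial and spike-in RNA they were 447 of 722, or 392 of 570 genes, both chosen after seeing the data, and single replicates gave 246 to 260. The 30 members over 2-fold apart between replicates became 52 with a pseudocount of 0.1, 17 with 1, 223 of 2349 with any nonzero value, 3 of 197 at 50 counts, 62 with counts scaled to the total, 62 with TMM, 13 with expected counts, 7 as genes and 3 as genes by expected counts (the last chosen after seeing the data). The 8 os genes at or above their partner became 5 by expected counts, 6 on counts in place of TPM and 15 of 243 pairs at 0.1 TPM. They were 10 with the partner's protein-coding transcripts alone, and 9 to 11 in single replicates. All 12 named replicate differences kept their sign under the other pseudocounts and with TMM. A pseudocount cannot turn a sign, and the TMM factors were 1.006 and 0.994, so this is a weak check. Of the 9 with expected counts 2 turned sign, 2810468N07Rik-204 at 1.30 (from -1.37) and 6330418K02Rik-202 at -0.46 (from 0.46). Another 3 were close to 0, Gm5577-201 at 0.01 (from 0.60), Gm10125-203 at -0.025 (from -0.61) and Gm49015-201 at -0.05 (from -0.72). Tug1-203 fell to 0.42 (from 4.05) and 5430405H02Rik-202 to 0.22 (from 0.69), and Gm45447-201 and AC165962.1-202 were at 0.45 and 0.41 (from 0.48 and 0.51). The causes were not tested. No paired analysis was possible because the labels give 1 group. Of the 4511 members 2162 had no estimated count and 1897 no count in either table.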
